A study of Mus musculus with 2 samples.

Results

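The genes described here make the antigen receptor genes of lymphocytes or mark the progenitors in which that happens. They are Rag1, Rag2, Dntt, Vpreb1, Vpreb3, Igll1, Myb, Sox4, Erg and Cd93, and the probe sets taken were those whose platform gene symbol is one of these 10, which gave 27 of 45037 probe sets. The genes were chosen by their intensities and ratios on these same arrays and by their known roles, so what follows is a description and carries no test. A further probe set carries both Vpreb1 and Vpreb2 as its symbol and was set beside the members without being counted.

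Gene expression was measured on 2 Affymetrix mouse arrays, 1 for each group. The transgenic array held RNA of B cells from 2 NOD mice carrying human AIRE, the regulator through which thymic epithelium expresses genes of other tissues, under an MHC class II promoter. The non-transgenic array, called the control array here, held RNA of the same kind of cells from 2 NOD mice without the transgene. All mice were 8 weeks old and of the NOD strain, which develops autoimmune diabetes, and the transgenic mice came from a single line. An MHC class II promoter is active in B cells and in other antigen-presenting cells, so the transgene need not have been limited to B cells. The cells were sorted as B220-positive and negative for Thy1 and CD11c, and the organ they came from is not in the labels. With RNA pooled and 1 array per group, no difference below has a replicate check, and this number of arrays sets the limit of precision. In such pooled RNA, fewer cells of a type and less RNA per cell cannot be told apart.

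Developing B cells assemble their receptor genes by V(D)J recombination. The Rag1 and Rag2 proteins together cut the DNA beside V, D and J segments, Dntt adds bases at the joints without a template, and general repair enzymes seal them. The first heavy chain is then tested on the cell surface together with a surrogate light chain made of the Vpreb1 and Igll1 proteins. Once a B cell has a complete receptor and has matured in the spleen, the recombination and surrogate light chain genes are largely silent, and their transcripts mark progenitors of the bone marrow or thymus.

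The DNA before the start of 4 members is shown first, so that motifs of known B cell regulators can be set beside the values of the genes. Rag1 and Vpreb1 read higher on the transgenic array, Igll1 is the neighbour of Vpreb1 on chromosome 16 and its partner in the surrogate light chain, and Vpreb3 is the brightest member. Each sequence is the 250 bases before the start of the gene in RefSeq, build GRCm38.p6, written 5′ to 3′ along the strand of the gene. Windows of this kind were found for 9 of the 10 genes, and Cd93 had no entry. Capitals mark matches, on either strand, to the E-box forms CAGGTG and CAGCTG bound by E proteins, to TGTGGT of RUNX factors and to ATGCAAAT, the octamer bound by Oct factors.

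Rag1 (chr2:101649533-101649782, minus strand): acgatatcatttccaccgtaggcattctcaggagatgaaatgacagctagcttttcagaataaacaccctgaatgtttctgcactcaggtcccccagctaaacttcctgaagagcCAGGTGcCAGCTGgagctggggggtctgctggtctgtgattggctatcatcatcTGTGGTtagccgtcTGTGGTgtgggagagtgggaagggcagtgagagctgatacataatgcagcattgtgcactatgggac

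Vpreb1 (chr16:16869256-16869505, minus strand): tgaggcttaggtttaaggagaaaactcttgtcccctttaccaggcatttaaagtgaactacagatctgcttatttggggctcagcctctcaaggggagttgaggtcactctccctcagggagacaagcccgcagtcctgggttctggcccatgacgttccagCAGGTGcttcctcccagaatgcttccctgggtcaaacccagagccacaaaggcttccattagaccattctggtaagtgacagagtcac

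Igll1 (chr16:16863986-16864235, minus strand): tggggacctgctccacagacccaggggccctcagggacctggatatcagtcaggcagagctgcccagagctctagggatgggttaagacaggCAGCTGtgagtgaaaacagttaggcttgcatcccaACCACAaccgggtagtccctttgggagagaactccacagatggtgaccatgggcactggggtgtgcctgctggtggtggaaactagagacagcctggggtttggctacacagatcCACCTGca

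Vpreb3 (chr10:75948050-75948299, plus strand): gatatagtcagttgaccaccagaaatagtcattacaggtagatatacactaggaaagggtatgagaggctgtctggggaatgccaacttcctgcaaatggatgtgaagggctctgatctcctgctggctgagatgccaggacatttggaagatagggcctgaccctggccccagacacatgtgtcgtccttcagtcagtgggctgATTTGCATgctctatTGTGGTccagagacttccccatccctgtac

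The Rag1 window held CAGGTG from base 135 and CAGCTG from base 128 before the start, and TGTGGT at 2 places, from bases 81 and 67. The Vpreb1 window held a single CAGGTG, from base 88. In the Igll1 window CAGGTG lay on the other strand from base 8, beside CAGCTG from base 158 and TGTGGT on the other strand from base 123. The Vpreb3 window held the octamer on the other strand from base 45 and TGTGGT from base 30. No match overlapped another in these 4 windows. Of 32851 windows of this length in the table, 17.2% held CAGGTG, 13.0% CAGCTG, 14.0% TGTGGT and 1.6% the octamer, so that all but the octamer are common. The Rag2, Dntt and Myb windows held none of these 4 motifs. These matches are letters in a window and not measured sites.

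On the transgenic array 7 of the 27 probe sets read 2-fold or more above the control array, from Rag1, Dntt, Vpreb1 and Myb, and 0 read 2-fold or more below it. Over all probe sets, 5.24% passed 2-fold upward and 5.38% downward. Because these genes were grouped for their pattern in the same contrast, nothing is read from the difference in shares. Intensities below are linear values after the median of each array was set to the pooled median of both. Ratios are log2 of transgenic over control, taken after raising values under the pooled 25th percentile, 25.1, to that floor. A fold with 1 value at the floor is a fold against that floor and changes with it, and 6 of the 27 probe sets lay under the floor on both arrays.

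No detection calls came with the values, so the dim end was described from genes that B cells are not known to use. The array carried 80 probe sets for olfactory and vomeronasal receptors, the odour and pheromone sensors of the nose. Their 95th percentile was 84.3 on the transgenic and 91.4 on the control array, and their highest values were 232.6 and 173.9. A value above the 95th percentile of its array is written here as above the sensory receptor range. Of the 27 member probe sets, 11 were above that range on both arrays, 4 on the transgenic array only, 1 on the control array only and 11 on neither. The cutoff differs between the arrays, and the same split was not counted over all probe sets. Nothing is therefore read from 4 against 1. Among the 80 sensory receptor probe sets themselves, 16.2% were at least 2-fold apart in either direction.

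**Figure D1:**
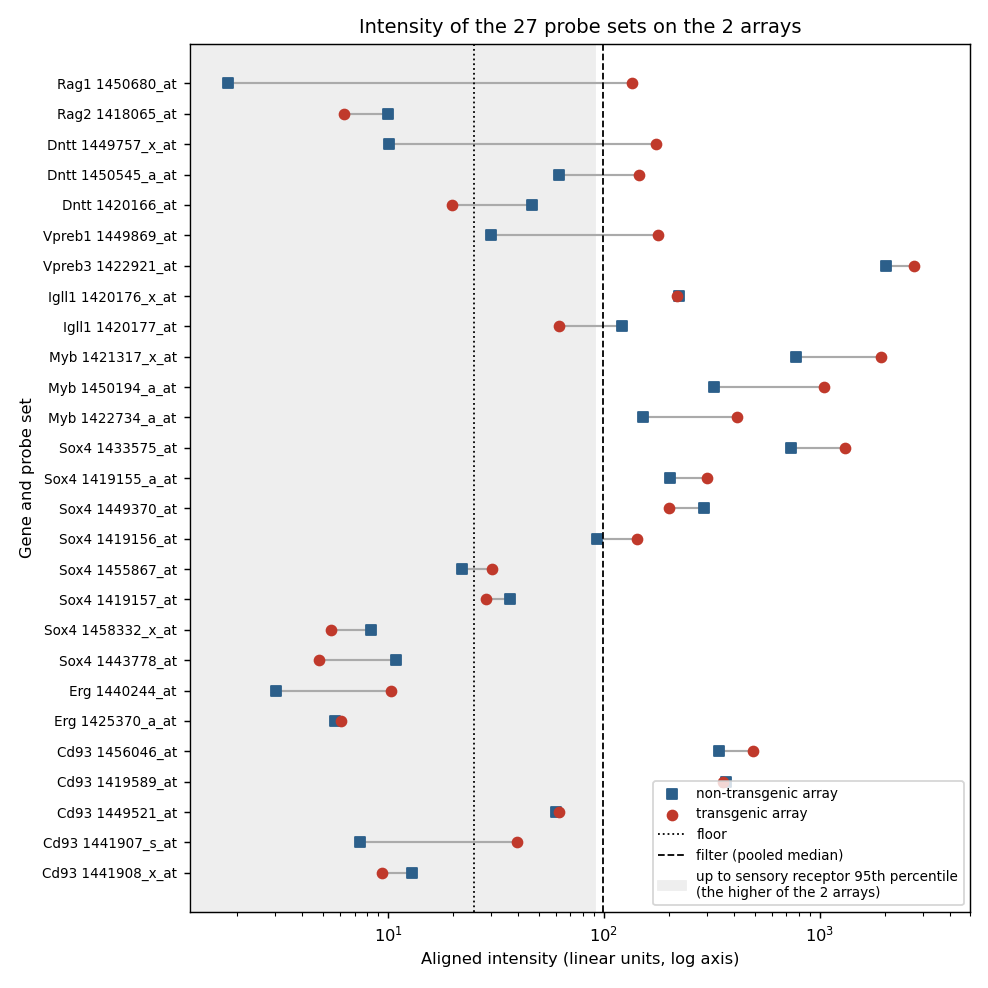
Aligned intensity (linear units on a log axis) of each of the 27 probe sets, with a circle for the transgenic and a square for the control array; the dotted line is the floor of 25.1, the dashed line the pooled median of 98.8, and the grey area reaches 91.4, the higher of the arrays' sensory receptor 95th percentiles. Only the 3 Myb probe sets are at least 2-fold higher with both points to the right of the grey area; in Rag1, Vpreb1 and 2 Dntt probe sets the control point lies inside it.

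Of the recombinase genes, Rag1 read above the sensory receptor range on the transgenic array only and Rag2 had no measurable level on either. Rag1, which carries the DNA-cutting site of the recombinase, read 134.5 on the transgenic array and 1.8 on the control array with its single probe set, 1450680_at. The control value is under the floor, and against the floor of 25.1 the transgenic value was 5.36-fold higher. That size rests on the floor: with the floor at the pooled median of 98.8 the log2 ratio was 0.44, under 2-fold. The transgenic value lay above 98.75% of the sensory receptor probe sets of that array but below the highest of them. Rag2, the partner without which Rag1 does not cut, read 6.26 and 9.95 with its single probe set. Both values are under the floor, so no ratio can be given, and the neighbour of Rag1 on chromosome 2 was not detectable above background on either array.

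A step like that of Rag1 was uncommon but ran both ways. Of 11174 probe sets under the floor on the control array, 107 (0.958%) reached the pooled median of 98.8 on the transgenic array, Rag1 and 1 Dntt probe set among them. In the other direction, 123 of 11333 (1.09%) did so.

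Dntt, the terminal transferase that adds untemplated bases at the joints, had 3 probe sets, with 2 of them higher on the transgenic array. The probe set 1450545_a_at read 146 on the transgenic and 61.8 on the control array (log2 ratio 1.24), with the control value inside the sensory receptor range. The probe set 1449757_x_at read 174 against 10.1, which is under the floor, and was 6.92-fold higher against the floor of 25.1. With the floor at the pooled median these ratios were 0.56 and 0.81, both under 2-fold. Its suffix marks probes that can also bind other transcripts. The third, 1420166_at, read 19.7 against 46.3, within the sensory receptor range on both arrays, so no direction is read from it. Dntt thus read above that range with 2 of its 3 probe sets, on the transgenic array only. As for Rag1, these transgenic values lay below the highest sensory receptor value of that array, 232.6.

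Of the surrogate light chain genes, Vpreb1 read above the sensory receptor range on the transgenic array only, and Igll1 was not higher there. Vpreb1, which encodes the variable-like part of the surrogate light chain, read 178 on the transgenic and 30.03 on the control array (log2 ratio 2.57). The control value lies inside the sensory receptor range, and with the floor at the pooled median the ratio was 0.85. The transgenic value, like that of Rag1, lay below the highest sensory receptor value of that array, 232.6. The probe set shared by Vpreb1 and Vpreb2, a near-identical copy, read 125.8 against 24.6, just under the floor. It is therefore uncertain which of these copies either probe set read. Igll1 encodes lambda5, the constant-like part of the surrogate light chain. Its probe set 1420176_x_at read 218 on the transgenic and 222 on the control array, a log2 ratio of -0.03. Here too the suffix marks probes that can also bind other transcripts. The other Igll1 probe set, 1420177_at, read 61.7 against 121.6 (-0.98), short of 2-fold lower, and passed 2-fold without scaling (-1.14). Its transgenic value lies inside the sensory receptor range. Neither Igll1 probe set was higher on the transgenic array.

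Vpreb3, whose protein binds newly made immunoglobulin chains inside the cell and which is not part of the recombination machinery, was the brightest member. It read 2726 on the transgenic and 2025 on the control array (0.43), above every sensory receptor probe set on both. Its difference was well within 2-fold.

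Among the progenitor transcription factors, Myb and Sox4 were bright on both arrays and Erg was dim. Myb, which sustains lymphoid and myeloid progenitors and is turned down as they mature, was the only member with every probe set at least 2-fold higher and above the sensory receptor range on both arrays. The probe set 1421317_x_at read 1920 on the transgenic and 779.5 on the control array (1.30). Its suffix marks probes that can also bind other transcripts, and the other Myb probe sets do not carry it. The probe set 1450194_a_at read 1053 against 324 (1.70), and 1422734_a_at read 413 against 152 (1.44). The 3 ratios spanned 0.40, although the probe sets differed several-fold in brightness. Among all probe sets with a mean intensity of 800 to 1600, where the brightest of them lies, 2.44% passed 2-fold upward and 1.45% downward.

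Sox4, an HMG-box factor needed for the survival of early B cell progenitors, had 8 probe sets, none of them 2-fold apart. The brightest, 1433575_at, read 1316 on the transgenic and 733 on the control array (0.84). Next came 1419155_a_at at 299.9 against 202 (0.57) and 1419156_at at 142 against 92.6 (0.62), both also higher. The probe set 1449370_at, at a like brightness, ran the other way at 199.8 against 290.4 (-0.54). The 4 dim ones read at most 36.6 on either array, and 2 of them were under the floor on both. Sox4 therefore had no single direction over its 4 measurable probe sets.

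Erg, an ETS factor of stem cells and endothelium that also acts in early B cell progenitors, was under the floor on both arrays with both of its probe sets. They read 10.3 and 6.05 on the transgenic and 3.03 and 5.68 on the control array. No ratio is given for them.

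Cd93, the surface antigen AA4.1 that marks immature and transitional B cells and is also found on endothelial and myeloid cells, had 5 probe sets. The probe set 1456046_at read 490.3 on the transgenic and 342.5 on the control array (0.52). The probe set 1419589_at read 356 against 368 (-0.05). These are the only Cd93 probe sets above the sensory receptor range, and both lie within 2-fold. Of the others, 1449521_at read 61.7 against 60.1, 1441907_s_at read 39.7 against 7.39, and 1441908_x_at was under the floor on both. For 1441907_s_at a low floor opens a ratio of 2.43, while both values lie inside the sensory receptor range.

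**Figure D2:**
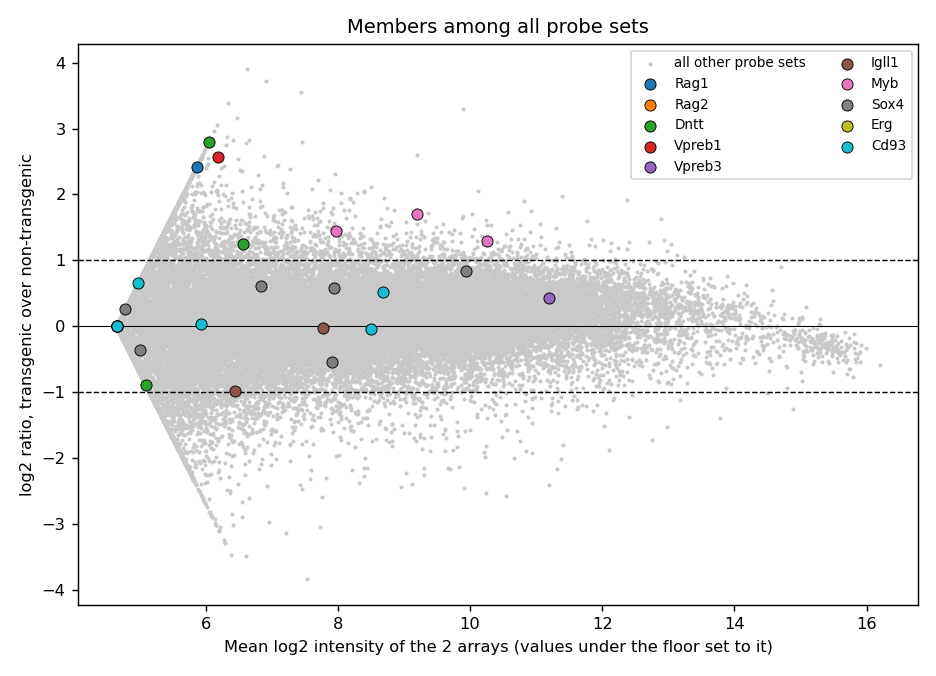
Log2 ratio of transgenic over control (vertical) against the mean log2 intensity of the 2 arrays (horizontal) for all 45037 probe sets in grey and the 27 members in colour, with values under the floor set to it; dashed lines mark 2-fold. The Myb points stand above the dense band at middle intensity, while Rag1 and a Dntt point lie on the slanted upper edge that the floor draws and Vpreb1 lies close to it.

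The share of probe sets past 2-fold depended on brightness. Among probe sets with a mean intensity of 50 to 100, which holds Rag1, 1 Dntt and 1 Igll1 probe set, 12.7% passed 2-fold upward and 14.6% downward. At 100 to 200, where Vpreb1 and another Dntt probe set lie, the shares were 6.85% and 6.24%. They fell to 2.71% and 2.06% at 400 to 800. A 2-fold difference was thus more common at the brightness of Rag1 than at that of the Myb probe set 1450194_a_at, which lies in the last of these ranges.

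The ratios of the dim members moved with the floor, and those of Myb did not. With the floor raised to the pooled median, the 3 Myb probe sets were the only members past 2-fold upward. With the floor lowered to the pooled 10th percentile, the ratio of Rag1 was 4.45. With no scaling, quantile normalization or loess, and the floor kept at the 25th percentile, the same 7 probe sets stayed past 2-fold upward. Over the 5 alternatives the Myb ratios ranged from 1.11 to 1.70.

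**Figure D3:**
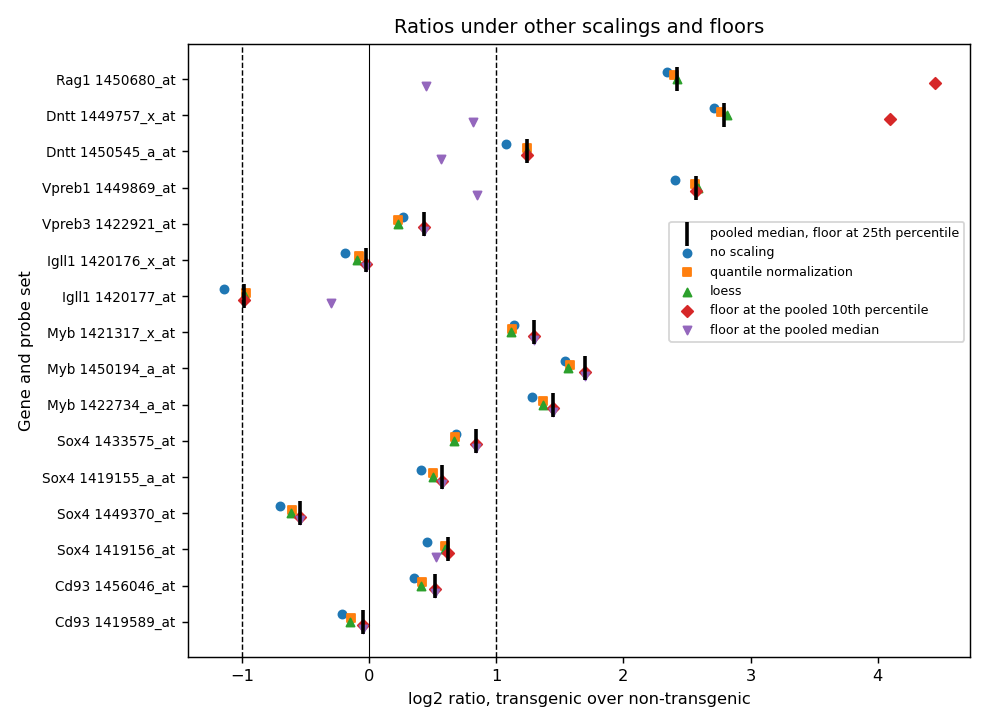
Log2 ratio of transgenic over control (horizontal) of the 16 member probe sets that reach 98.8 on at least 1 array, with a black bar for the setting used in the text and a symbol for each of 5 alternatives; dashed lines mark 2-fold. The Myb symbols stay to the right of the 2-fold line, whereas those of Rag1, Dntt and Vpreb1 cross it when the floor is the pooled median.

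The other genes of the pathway were taken from fixed lists, each gene by its probe set of highest mean level and only if its higher value reached 98.8. Of all 10785 such genes, 4.51% passed 2-fold upward and 3.32% downward on the transgenic array, with a median log2 ratio of 0.19, which is 0.01 without scaling. Of 11 genes of end joining, the repair step after Rag cutting, none was 2-fold apart and the median was 0.27. Hmgb2, a DNA-bending partner of the recombinase and the brightest of them, read 2634 against 2434 (0.11), with its other 2 probe sets from -0.15 to -0.04. Trp53bp1 (0.88), Lig4 (0.87), Xrcc5 (0.82), Xrcc6 (0.72), Prkdc (0.31), Xrcc4 (0.27) and Atm (0.19) also read higher. Nhej1 (-0.03), Polm (-0.06) and Poll (-0.19) read lower. The other Trp53bp1 probe sets ranged from -0.05 to 0.40. Of 16 transcription factors of early B cells none was 2-fold apart either by the probe set of highest mean level, with a median of -0.15. Another probe set each of Pax5 (-1.28), Tcf3 (-1.16) and Ebf1 (-1.11) was at least 2-fold lower. With the probe sets of each gene averaged, the median was -0.39, beside 0.11 for all genes. Irf8, the brightest of the 16, read 13537 against 14093 (-0.06).

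Surface and signalling genes of B cell progenitors had 1 of 13 genes past 2-fold upward, 1 downward and a median of -0.14. The upward one was the stem cell factor receptor gene Kit at 135.1 against 63.9, with the control value inside the sensory receptor range and its other probe set at 0.43. Cd79a, a signalling chain of the B cell receptor and of its precursor, read 19609 against 46825 (-1.26). Within 2-fold, Spn (0.96), Il7r (0.43), Bst1 (0.33) and Flt3 (0.30) read higher. Another Spn probe set was at -0.29, and the control value of Bst1 lay inside the sensory receptor range. Rhoh (-0.78), Cd79b (-0.62), Blnk (-0.27), Ly6d (-0.22), Cd24a (-0.17), Btk (-0.14) and Syk (-0.09) read lower. Another Rhoh probe set was at 0.47 and another Syk probe set at -1.29. The progenitor genes Cd34 and Enpep were below the filter, with Cd34 under the floor on both arrays. Genes of immature and transitional B cells other than the members had none of 10 genes 2-fold apart and a median of -0.18, with Ighm, the IgM heavy chain gene, at 44462 against 63675 (-0.52). The other 10 probe sets of Ighm ranged from -2.23 to 0.41.

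Genes of mature follicular B cells had 2 of 10 at least 2-fold lower, none higher and a median of -0.69. Il4ra, the interleukin-4 receptor chain, read 967 against 2895 (-1.58), although its other 2 probe sets ranged from -2.16 to 0.34. Fcer2a, the IgE receptor CD23, read 4736 against 13654 (-1.53) with its other probe set at -2.16. The class II chain H2-Aa, the brightest of the list, read 43346 against 67933 (-0.65). Plasma cell genes had none of 9 genes 2-fold apart and a median of -0.27, and their brightest, Igha, read 21033 against 25370 (-0.27). Xbp1 (0.45), Prdm1 (0.31) and Mzb1 (0.30) read higher, with the other Xbp1 probe sets from 0.09 to 0.98. Derl3 (-0.59), Tnfrsf17 (-0.44), Jchain (-0.37) and Irf4 (-0.34) read lower. The plasma cell gene Sdc1 was at -0.08, but its other 3 probe sets ranged from -2.29 to 0.29. The B cell genes Cd79a and Ighm and the class II chain H2-Aa all lay far above the pooled median on both arrays. So did Lyz2, of the list of monocytes, macrophages and neutrophils, at 5939 and 6172, so these levels do not measure the purity of the cells.

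**Figure D4:**
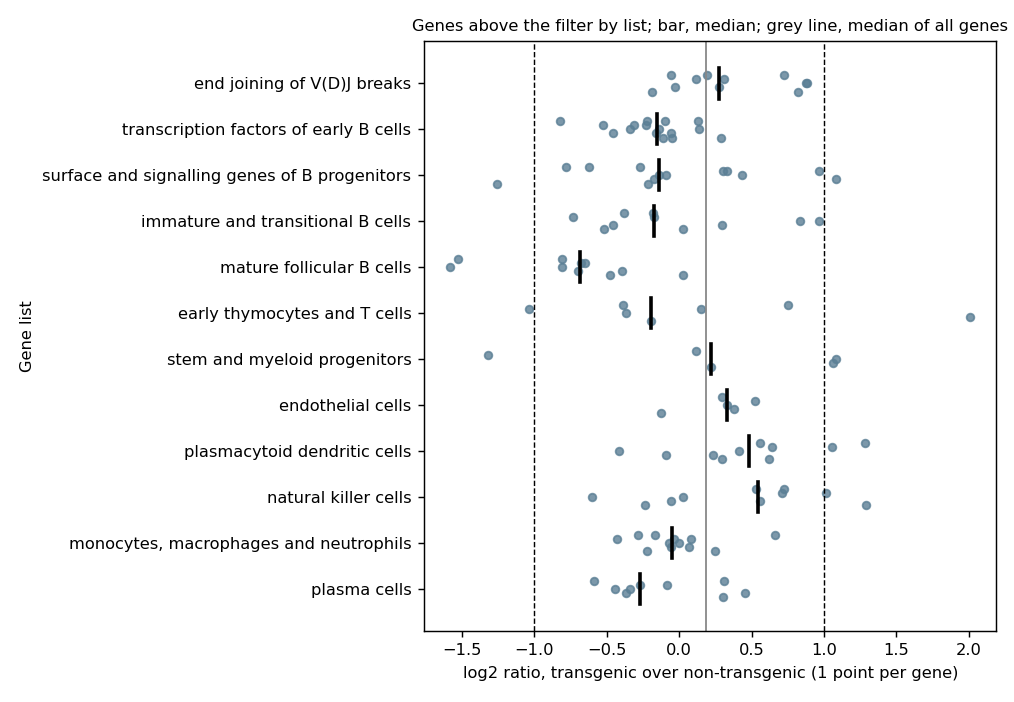
Log2 ratio of transgenic over control (horizontal) for each gene above the filter in 12 lists, 1 point per gene; the black bar is the median of a list, the grey line the median of all genes (0.19), and dashed lines mark 2-fold. The natural killer and plasmacytoid dendritic cell lists have the highest medians (0.54 and 0.49) and mature follicular B cells the lowest (-0.69).

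Several members are also expressed outside the B lineage, so lists for those cells are given beside them. Early thymocytes share Rag1, Rag2, Dntt, Myb and Sox4. Of their list with mature T cells, 7 of 13 genes passed the filter, with 1 past 2-fold upward, 1 downward and a median of -0.20. Cd4 read 155 against 38.4, the latter inside the sensory receptor range, with its other probe set under the floor, Thy1, the antigen sorted against, read 101.2 against 208 (-1.04), and Cd3d, the brightest, read 349 against 315. The defining thymocyte gene Ptcra read 63.6 against 57.3, within the sensory receptor range. The summed level of the 13 genes was 1765 on the transgenic and 1657 on the control array.

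Stem and myeloid progenitors share Myb and Erg, and 5 of their 11 genes passed the filter. Past 2-fold were Kit and the granule enzyme gene Mpo (105.9 against 50.7) upward and Hlf, a stem cell transcription factor (46.1 against 115.3), downward. The lower value of each of these 3 lies inside the sensory receptor range, so the sizes of these differences are not given. Their sums were 797 and 791, the median was 0.22, Gata2 was the brightest at 176.5 against 163, a second Gata2 probe set had a log2 ratio of -1.46, and Cd34 and Ctsg were under the floor on both arrays. Endothelial genes, which share Erg and Cd93, had sums of 2071 and 2073, none of 5 genes 2-fold apart and a median of 0.33. Pecam1, the brightest, read 1325 against 1443 (-0.12) and made up most of both sums, so their likeness says little of the other genes. Egfl7 (0.52), Kdr (0.38), Eng (0.33) and Cdh5 (0.29) read higher, with the other Egfl7 probe sets from -0.77 to 0.76. Of the 12 genes of this list, 5 read above the sensory receptor range on both arrays, and Tie1 and Cldn5 were under the floor on both. Genes of monocytes, macrophages and neutrophils, among which Cd93 also occurs, had sums of 19620 and 19104, none of 12 genes 2-fold apart and a median of -0.05, with Lyz2 at 5939 against 6172 (-0.06).

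Plasmacytoid dendritic cells carry B220 and also CD11c, against which the cells were sorted, and the genes of their list were measurable on both arrays. All 10 genes of their list with a probe set of their own passed the filter on both arrays and none was under the floor, with sums of 14098 on the transgenic and 10328 on the control array. Of these, 2 were at least 2-fold higher, none was lower by that much, and the median was 0.49. Klk1, a kallikrein, read 1447 against 593.5 (1.29), while its other 3 probe sets ranged from 0.43 to 0.48. Ccr9, a chemokine receptor, read 1453 against 698 (1.06), with its other 4 from -0.31 to 0.98. Tcf4, the E protein that specifies these cells and the brightest of the list, read 5499 against 4476 (0.30), with its other 5 from -1.16 to 0.32. Tcf4 was the largest part of both sums and is also in the list of immature and transitional B cells, so the sums do not measure plasmacytoid dendritic cells alone. The defining lectin gene Siglech read 830 against 882 (-0.09). Natural killer genes had sums of 8744 and 5854 over 11 genes, with 2 of the 10 above the filter past 2-fold upward and a median of 0.54. These were Klre1, a lectin-like receptor, at 470 against 192 (1.29) and the protease gene Gzma at 2771 against 1370 (1.02). Within 2-fold, Klrk1 (0.72), Ncr1 (0.71), Klrd1 (0.55), Eomes (0.53) and Nkg7 (0.02) read higher. Gzmb (-0.61), Tbx21 (-0.24) and Prf1 (-0.06) read lower, with another Prf1 probe set at -0.50. The part of any of these cells in the levels of Rag1, Dntt, Vpreb1 and Myb was not tested.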

How the data were processed

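The authors deposited 1 linear intensity per probe set and array, and no source used here gives the software, background step or scaling behind these intensities. Per the labels, total RNA of sorted cells from 2 mice per group was reverse transcribed, biotin-labelled and hybridised to 1 array each. The 64 control probe sets of 45101 were left out. Of the other 45037, the platform table gives 1 gene symbol to 34945, several to 932 and none to 9160, and only those with 1 symbol were named.

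The deposited intensities had a median of 93.1 (transgenic) and 104.3 (non-transgenic, called the control array). Each array was multiplied by 1.06 or 0.947 to bring its median to the pooled one. Values below the 25th percentile of both arrays together were raised to it before log2 was taken. Called means at least 2-fold apart, and there is no p-value. The 10 genes and all gene lists were chosen with earlier results of these data known. Named genes were all member probe sets and, of each other list, up to 3 genes past 2-fold by size of ratio and the gene of highest level; other genes named were chosen after their values were seen. The steps were tested on simulated data, with known folds placed only in bright probe sets, so ratios near the floor were not tested. Alternatives were no scaling, quantile normalization, loess (span 0.3), other floors, filters and fold thresholds and the omission of probe sets marked as shared, which was added after seeing the data. Promoter windows came from RefSeq, and their motifs were also chosen with the values known. The scripts ran under Python 3.11.15 with pandas 2.3.3, statsmodels 0.14.6 for loess and matplotlib 3.10.9.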

Additional observations from a re-analysis of the deposited data

How the results depend on the processing

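Of the 27 probe sets, 7 passed 2-fold upward on the transgenic array and 0 downward. The higher count was 3 with the floor at the pooled median, 3 among the 10 probe sets with both values at or above the pooled median, and 4 at a 3-fold threshold. In each of the other 7 settings tried it was between 5 and 10. The lower count was 1 without scaling, 1 with the floor at the pooled 10th percentile and 2 at a 1.5-fold threshold. The probe set behind the first was an Igll1 one (-1.14) and behind the second a Dntt one (-1.23), and in the other settings the lower count stayed at 0. Without probe sets marked _x_at or _s_at, an alternative added after seeing the data, 5 of 21 were at least 2-fold higher. Of all 21062 probe sets with both values at or above the pooled median, 2.57% passed 2-fold upward and 1.79% downward. With the higher value at or above it, the shares were 4.71% and 4.04% of 23987. For the other settings no share over all probe sets was computed, so nothing is read from their counts.

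Of 135 recomputed ratios of single probe sets, 120 kept their side of 2-fold and moved by less than 1.5-fold, and 15 did not; no ratio past 2-fold changed sign. Of the 12 other lists, 5 had a median above that of all genes, and 4 to 6 did under the 5 alternatives tried. Against the 75th or 99th percentile of the sensory receptor probe sets, 18 or 16 member probe sets lay above it on at least 1 array, where the 95th gave 16. No such count was made over all probe sets. No paired analysis was possible because each group had a single array.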
